A study of Mus musculus with 50 samples.

Results

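The genes described here are 41 genes of the cell cycle and DNA replication, taken by symbol from the 56691 genes of a colon RNA table. They fall into 14 genes of DNA replication, 20 genes that act in mitosis, and 7 others that are cell cycle regulators or general proliferation markers. Poly(A) RNA of distal colon was sequenced in 50 BALB/c mice, 10 per group. The groups were mice given TNBS and vehicle, mice given TNBS and A1007 at 10, 30 or 90 mpk, and sham mice. TNBS is trinitrobenzene sulfonic acid, a hapten that provokes colitis, and all groups but sham received it. A1007 is named in the series as an orally active agonist of the aryl hydrocarbon receptor, a ligand-activated transcription factor. All mice share 1 strain and 1 batch in the labels; neither their age nor their sex is stated there.

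A dividing cell copies its DNA in S phase and separates the copies in mitosis. Before S phase Cdc6 and Cdt1 load the Mcm2-7 helicase ring onto DNA, Cdc45 and the GINS complex (which holds Gins2) activate it, Pcna clamps the polymerase to the template, and Rrm1, Rrm2 and Tyms supply deoxynucleotides. Cyclin B with Cdk1 drives entry into mitosis, aurora and polo kinases order it, kinesins and their partners build the spindle and the midzone, and Cdc20 and Ube2c serve the ubiquitin ligase that ends it. E2F factors bind promoters of many replication genes, whereas mitotic genes are known for promoters with a cell cycle homology region (CHR) and NF-Y boxes, which are read by the DREAM and MuvB-Foxm1 complexes. In the colon, dividing cells sit mainly in the lower crypt, and dividing stromal and immune cells add to them during inflammation.

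The promoters below are printed because both motif classes can be seen in them. Of the 41 members 33 were found in RefSeq's promoter table (GRCm38.p6), which holds 250 bases before and 50 bases after each start. Mcm5 and Rrm2 stand for replication, and Ccnb1 and Plk1 for mitosis. Capitals mark every match, on either strand, to a CHR (TTTGAA or TTTAAA), an NF-Y box (CCAAT) or an E2F site (TTTCCCGC, TTTGGCGC, TTTCGCGC or TTTGCCGC); in none of these 4 promoters did a match of one motif overlap a match of another.
Mcm5 (chr8:75109259-75109558, + strand): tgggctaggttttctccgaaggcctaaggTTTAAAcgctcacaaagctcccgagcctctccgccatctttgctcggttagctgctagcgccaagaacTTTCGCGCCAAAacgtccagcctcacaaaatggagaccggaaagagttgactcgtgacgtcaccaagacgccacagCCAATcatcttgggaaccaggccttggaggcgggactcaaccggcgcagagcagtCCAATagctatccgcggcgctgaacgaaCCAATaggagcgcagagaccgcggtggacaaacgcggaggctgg
Rrm2 (chr12:24708004-24708303, + strand): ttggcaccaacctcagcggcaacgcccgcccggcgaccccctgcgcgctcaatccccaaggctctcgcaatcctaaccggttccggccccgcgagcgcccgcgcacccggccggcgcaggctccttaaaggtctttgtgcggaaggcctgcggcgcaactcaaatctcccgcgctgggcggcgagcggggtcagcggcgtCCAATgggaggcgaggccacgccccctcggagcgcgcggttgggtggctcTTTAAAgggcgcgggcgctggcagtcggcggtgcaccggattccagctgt
Ccnb1 (chr13:100786437-100786736, - strand): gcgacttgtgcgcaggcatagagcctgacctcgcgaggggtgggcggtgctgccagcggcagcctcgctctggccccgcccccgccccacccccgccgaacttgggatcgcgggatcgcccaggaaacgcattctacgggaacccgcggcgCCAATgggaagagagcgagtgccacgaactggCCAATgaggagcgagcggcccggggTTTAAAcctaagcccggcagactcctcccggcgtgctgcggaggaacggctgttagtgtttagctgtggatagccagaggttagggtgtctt
Plk1 (chr7:122159185-122159484, + strand): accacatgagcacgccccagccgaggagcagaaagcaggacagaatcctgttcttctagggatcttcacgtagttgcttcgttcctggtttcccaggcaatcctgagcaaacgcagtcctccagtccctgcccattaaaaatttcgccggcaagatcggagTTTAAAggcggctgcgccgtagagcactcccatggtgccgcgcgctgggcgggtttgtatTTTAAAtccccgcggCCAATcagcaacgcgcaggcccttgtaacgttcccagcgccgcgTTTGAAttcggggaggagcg

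The Mcm5 promoter held 3 NF-Y boxes, 1 CHR match and 2 E2F matches. These E2F matches lay on opposite strands and overlapped each other within 1 stretch. Rrm2 held 1 CHR match and 1 NF-Y box, Ccnb1 1 CHR match and 2 NF-Y boxes, and Plk1 3 CHR matches and 1 NF-Y box. A CHR match lay in 15 of 17 mitotic members with a promoter (88.2%) and in 4 of 12 replication members (33.3%), beside 30.6% of all 27025 genes in the table. An NF-Y box lay in 15 of 17 mitotic members (88.2%) and 9 of 12 replication members (75%), beside 41.1% of all genes. E2F matches showed the opposite order, with 1 of 17 mitotic members (5.88%) and 6 of 12 replication members (50%), beside 2.6% of all genes. Among the 4 other members with a promoter, a CHR match lay in Ccne1, Mki67 and Top2a. These are matches of letters and not shown binding sites.

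**Figure D1:**
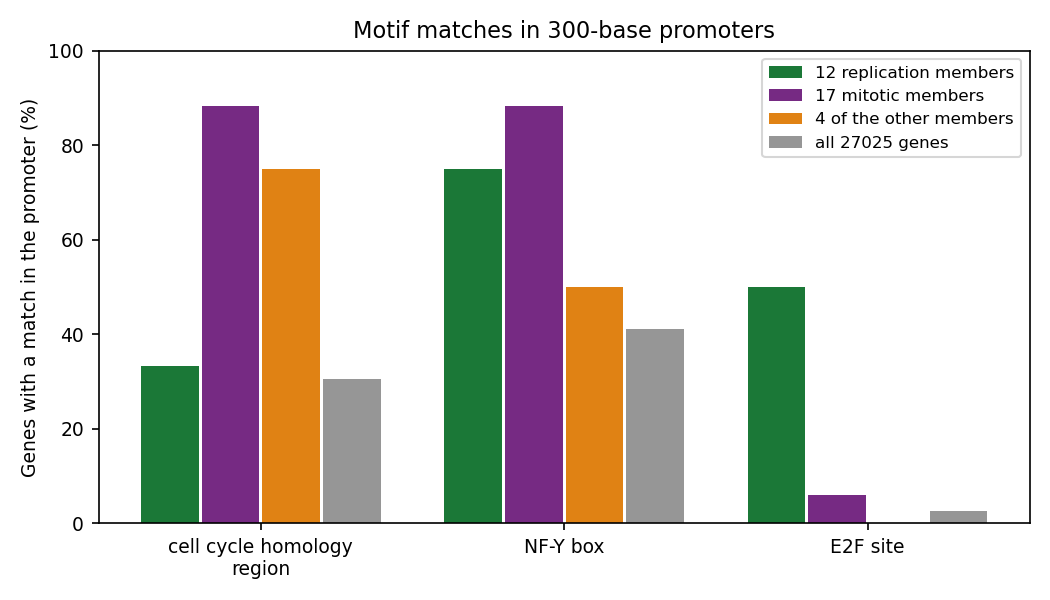
Share of genes (%) whose 300-base promoter held a match to each motif, in 12 replication members, 17 mitotic members, 4 other members and all 27025 genes of the table. The CHR bar reaches 88.2% in mitotic members and 33.3% in replication members, and the E2F bar 5.88% and 50%.

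Libraries held 14373337 to 20446967 counts, and all 41 members passed the filter on low counts that left 17928 genes for testing. The epithelium markers were all detected, with a summed level of 5697 to 12300 FPKM (counts scaled by exon length and library size) over the 50 mice. Several libraries stood apart by other measures. Vehicle replicate 6 held pancreatic acinar RNA, with a summed marker level of 48530 FPKM against a vehicle median of 55.1 FPKM. The 10 mpk mice 3 and 8 were low in Hoxd13, a homeobox gene of the hindmost gut, and 10 mpk mouse 6 and 30 mpk mouse 1 were near 0 in Xist. Mice of every TNBS group also held acinar RNA, where sham mice reached at most 55.5 FPKM. The next largest sums were 3333 FPKM in 30 mpk replicate 2 and 1644, 1338 and 696.5 FPKM in vehicle replicates 5, 2 and 9. With them stood 887.3 FPKM in 10 mpk replicate 7 and 553.8 and 414.5 FPKM in 90 mpk replicates 2 and 4. These libraries stayed in the tests. Without vehicle replicate 6, 26 members were called for vehicle against sham, and 1, 31 and 33 at 10, 30 and 90 mpk against vehicle.

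Expression of the members was low to moderate and moved as a block from mouse to mouse. Vehicle replicates 2 and 7 and 10 mpk replicate 5 carried the highest levels of the series. The geometric mean of the 14 replication members was 14.9 and 12.1 FPKM in the 2 vehicle mice and 13.03 FPKM in the 10 mpk mouse. That of the 19 mitotic members other than Plk1 was 12.2, 11.2 and 12.1 FPKM in the same mice. The remaining mice of these groups reached at most 9.75 FPKM for replication and 6.46 FPKM for mitosis. In sham mice the replication mean ran from 5.41 to 7.56 FPKM and the mitotic mean from 3.33 to 5.13 FPKM.

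The spread between mice was itself unequal between groups. The coefficient of variation had a median over the 41 members of 43.3% in vehicle mice, 47.6% at 10 mpk, 17% at 30 mpk, 16% at 90 mpk and 13.9% in sham mice. S100a8, a neutrophil alarmin, reached 2388 FPKM in vehicle replicate 9 and 1229 FPKM in vehicle replicate 5, whose replication means were 7.33 and 9.75 FPKM. It was 175 and 79.9 FPKM in vehicle replicates 2 and 7. At 10 mpk the mouse with the highest members, replicate 5, also had the most S100a8 of its group, 230.2 FPKM.

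**Figure D2:**
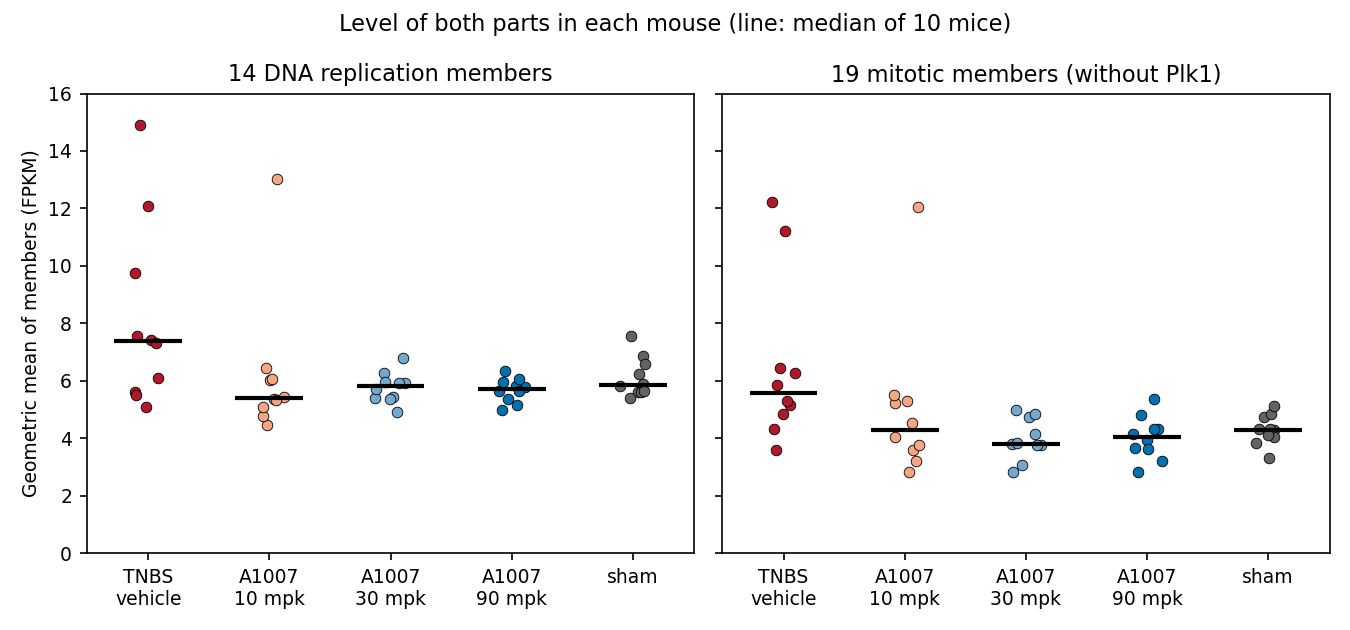
Geometric mean FPKM of the 14 replication members (left) and of 19 mitotic members without Plk1 (right); each point is 1 mouse and each line the median of 10 mice. 2 vehicle mice and 1 mouse at 10 mpk lie above 11 FPKM in both panels, while all mice at 30 and 90 mpk and all sham mice lie below 8 FPKM.

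After removal of the group means, the members varied together over the 50 mice. The median Pearson correlation of log2(FPKM + 0.5) was 0.81 between pairs of replication members, 0.84 between pairs of mitotic members without Plk1 and 0.69 between a replication and a mitotic member. These values are a description, because the genes share each mouse's library. Against the mean of all other members, Ccna2 (the cyclin of S phase and G2) had a correlation of 0.97 and Tpx2, a spindle assembly factor, 0.97. The lowest were Plk1 with 0.40, Ccne2, a cyclin of the G1 to S transition, with 0.62 and E2f1 with 0.65.

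TNBS vehicle mice had more cell cycle RNA than sham mice, and more mitotic than replication members passed the test. Of the 41 members 23 were higher in vehicle mice and no called member was lower, where edgeR's quasi-likelihood test with Benjamini-Hochberg adjustment called 18.2% of all genes higher and 13.5% lower. By part, 16 of 20 mitotic, 4 of 14 replication and 3 of 7 other members were called. Above 0 lay 19 of 20 mitotic and 14 of 14 replication members, and an unadjusted p under 0.05 was reached by 17 and 11 of them. Quantile scaling called 12 members in place of 23. The median log2 fold change was 0.65 over mitotic members (0.66 without Plk1), 0.38 over replication members and 0.02 over all genes tested; the difference between the parts was not tested. In bulk RNA, more cells in cycle and more RNA per cycling cell cannot be told apart.

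Rrm2, the small subunit of ribonucleotide reductase and its S-phase-limited part, changed most. Its level was 7.23 to 34.3 FPKM in vehicle mice (median 12.1), against 5.26 to 10.6 FPKM in sham mice (median 6.42). All 10 vehicle mice lay above the sham median and 6 above every sham mouse. The log2 fold change was 1.18 (SE 0.25, adjusted p = 0.0014). Rrm1, its large subunit (4.23 to 13.3 FPKM in vehicle mice, median 6.46, against 4.85 to 6.23 FPKM in sham mice, median 5.48), Mcm3 and Cdt1 were the other called replication members, with log2 fold changes of 0.45 (Rrm1), 0.47 (Mcm3) and 0.39 (Cdt1). Leaving out 1 mouse at a time ended the call of Rrm1 in 8, of Mcm3 in 11 and of Cdt1 in 12 of 20 cases, and without vehicle replicate 2 or 7 the replication count was 1.

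The helicase genes as a group did not pass the test apart from Mcm3. Mcm2 had 3.18 to 9.04 FPKM in vehicle mice (median 5.15), against 4.02 to 5.59 FPKM in sham mice (median 4.43; log2 fold change 0.21, adjusted p = 0.271). Mcm5 had 6.08 to 23.5 FPKM in vehicle mice (median 9.23), against 6.89 to 11.2 FPKM in sham mice (median 8.98; log2 fold change 0.32, adjusted p = 0.217). Here 2 vehicle mice lay below every sham mouse for Mcm2 and 3 above. Cdc45 had 1.89 to 5.56 FPKM in vehicle mice (median 2.65), against 1.56 to 2.83 FPKM in sham mice (median 2.14; log2 fold change 0.44, adjusted p = 0.0621).

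On the mitotic side, the groups separated further. Ccnb1, cyclin B1, had 3.62 to 14.5 FPKM in vehicle mice (median 6.54), against 3.37 to 5.59 FPKM in sham mice (median 4.34). The log2 fold change was 0.72 (SE 0.20, adjusted p = 0.0102), and 7 vehicle mice exceeded every sham mouse. Kif20a, a kinesin needed for cytokinesis, had 2.71 to 9.25 FPKM in vehicle mice (median 4.22), against 2.45 to 3.54 FPKM in sham mice (median 3.20), a log2 fold change of 0.70 with adjusted p = 0.00835. The largest mitotic rises were those of Birc5, the survivin subunit of the chromosomal passenger complex, and of Cenpa, the centromeric histone H3 variant.

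Birc5 had 4.71 to 21.4 FPKM in vehicle mice (median 7.03), against 3.62 to 6.89 FPKM in sham mice (median 4.90), a log2 fold change of 0.91 with adjusted p = 0.0101 and SE 0.25. Cenpa had 2.70 to 8.10 FPKM in vehicle mice (median 3.33), against 1.89 to 3.21 FPKM in sham mice (median 2.39), a log2 fold change of 0.78 with adjusted p = 0.00452 and SE 0.19. The groups overlapped for both genes, with 5 and 6 vehicle mice above every sham mouse. Cdk1, the partner kinase of cyclin B (0.74), and Aurkb, the kinase of the passenger complex (0.66), rose by similar log2 amounts. Among mitotic members that were not called were the kinetochore genes Cenpe (0.45, adjusted p = 0.0579) and Cenpf (0.24, adjusted p = 0.269) and the motor gene Kif11 (0.36, adjusted p = 0.139).

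Among the other members, Ccna2 (log2 fold change 0.66), Foxm1 (0.63) and Top2a (0.49) rose. Foxm1 is the forkhead factor that drives mitotic genes and Top2a untangles DNA before chromosome separation. Mki67, whose protein Ki-67 marks cycling cells, was not called. It had 8.39 to 32.7 FPKM in vehicle mice (median 16.9), against 11.4 to 16.6 FPKM in sham mice (median 13.96; log2 fold change 0.29, adjusted p = 0.209). For Mki67, 5 vehicle mice lay above every sham mouse and 2 below all of them.

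The vehicle count rested in part on single mice. It was 15 without vehicle replicate 2, 15 without vehicle replicate 7 and 15 without sham replicate 6. The markers of other cell types moved in the same comparison. All 10 neutrophil, all 12 macrophage, 8 of 10 fibroblast and 8 of 10 endothelial markers were higher in vehicle mice, as were all 13 tested pancreatic acinar markers, and T cell markers were uncalled; their part in the members' rise was not tested. The summed neutrophil level was 46.7 to 7488 FPKM in vehicle mice against 25.2 to 62.1 FPKM in sham mice. Acinar markers summed to 31.9 to 48530 FPKM in vehicle mice (median 55.1) against 30.8 to 55.5 FPKM in sham mice (median 37.1). Macrophage markers summed to 366.8 to 1045 FPKM in vehicle mice against 209.7 to 330.2 FPKM in sham mice, and fibroblast markers to 578.3 to 1258 against 197.6 to 329.6 FPKM.

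**Figure D3:**
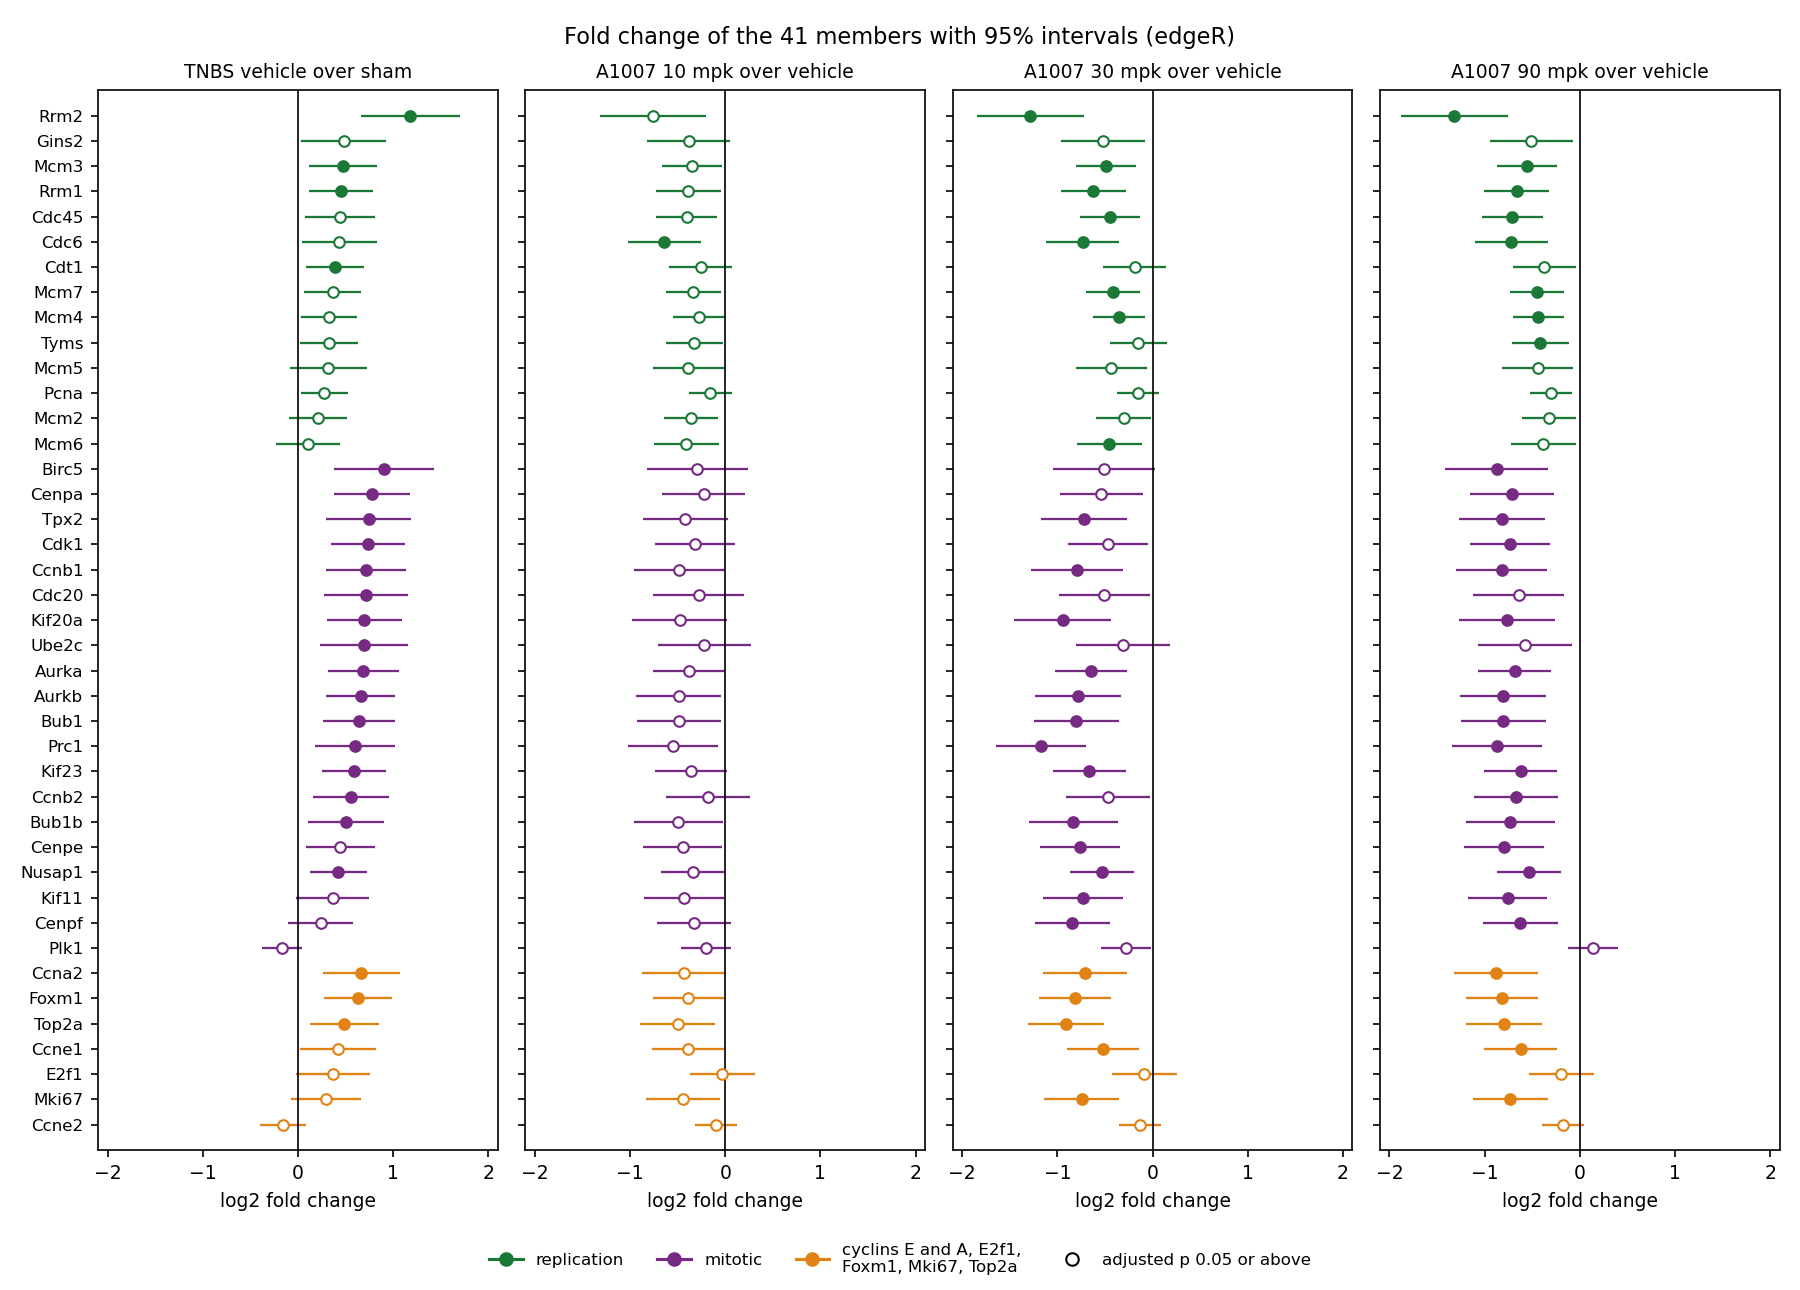
Log2 fold change (points) with 95% intervals (bars) of each member, ordered within its part by the vehicle comparison; filled points passed adjusted p under 0.05. In the vehicle panel 23 points are filled right of 0, at 10 mpk only Cdc6 is filled, and at 30 and 90 mpk 26 and 30 points are filled left of 0.

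At 30 and 90 mpk the members were lower than in vehicle mice. At 30 mpk 26 of 41 were lower, where 17.9% of all genes were called lower and 13.5% higher. At 90 mpk 30 of 41 were lower, where 11.1% of all genes were called lower and 7.12% higher. The medians at 30 mpk were -0.69 over mitotic and -0.44 over replication members, and at 90 mpk -0.73 and -0.45, with -0.02 and -0.01 over all genes. By part, 13 of 20 mitotic, 8 of 14 replication and 5 of 7 other members were called at 30 mpk, and 17, 8 and 5 at 90 mpk. These comparisons share the vehicle mice with the comparison against sham, so the same high vehicle libraries enter each of them.

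Nucleotide supply again held the largest change. Rrm2 was 4.42 to 7.08 FPKM at 30 mpk (median 6.09) and 4.4 to 8.05 FPKM at 90 mpk (median 5.99), against 7.23 to 34.3 FPKM in vehicle mice (median 12.1). The 30 mpk and vehicle groups did not overlap, and 8 of 10 mice at 90 mpk lay below every vehicle mouse. The log2 fold change was -1.28 at 30 mpk (SE 0.28, adjusted p = 0.000708) and -1.32 at 90 mpk (SE 0.28, adjusted p = 0.000837). Rrm1 fell by 0.62 and 0.66 on the log2 scale at the 2 doses, and Tyms, thymidylate synthase, was called at 90 mpk only (-0.42, adjusted p = 0.0441, and -0.15, adjusted p = 0.449, at 30 mpk). The Tyms call was lost in 12 of 20 omissions of 1 mouse, and the difference between the doses was not called.

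Of the helicase and loading genes, Mcm3, Mcm4, Mcm7, Cdc45 and Cdc6 were called at 30 and at 90 mpk, Mcm6 at 30 mpk, and Mcm2 and Mcm5 at neither dose. At 30 mpk the calls of Mcm4 and Mcm6 were each lost in 6 of 20 omissions of 1 mouse. Those of Cdc45, Mcm7 and Mcm3 were lost in 3, 2 and 1. At 90 mpk the calls of Mcm4 and Mcm7 were each lost in 2. Mcm5 had 6.93 to 9.90 FPKM at 30 mpk (median 8.35) and 7.39 to 10.2 FPKM at 90 mpk (median 8.18), against 6.08 to 23.5 FPKM in vehicle mice (median 9.23). Mcm2 had 3.45 to 5.12 FPKM at 30 mpk (median 4.23) and 3.90 to 5.03 FPKM at 90 mpk (median 4.36), against 3.18 to 9.04 FPKM in vehicle mice (median 5.15). Both treated groups lay inside the vehicle range for these helicase genes.

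Cdc45, which activates the helicase, had 1.77 to 2.55 FPKM at 30 mpk (median 2.06) and 1.51 to 2.22 FPKM at 90 mpk (median 1.77), against 1.89 to 5.56 FPKM in vehicle mice (median 2.65). Its log2 fold change was -0.45 at 30 mpk (adjusted p = 0.0282) and -0.71 at 90 mpk (adjusted p = 0.00156). At 90 mpk 7 of 10 mice lay below every vehicle mouse. Pcna, which also serves DNA repair, was not called at either dose (-0.15, adjusted p = 0.300, and -0.30, adjusted p = 0.0514).

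In the mitotic part, Ccnb1 had 2.40 to 5.64 FPKM at 30 mpk (median 4.4) and 3.40 to 5.83 FPKM at 90 mpk (median 4.13), against 3.62 to 14.5 FPKM in vehicle mice (median 6.54). Its log2 fold change was -0.80 at 30 mpk (SE 0.24, adjusted p = 0.0105) and -0.82 at 90 mpk (SE 0.24, adjusted p = 0.0132). All 20 mice at these doses lay below the vehicle median. Kif20a had 1.54 to 3.45 FPKM at 30 mpk (median 2.58) and 1.68 to 3.98 FPKM at 90 mpk (median 3.09), against 2.71 to 9.25 FPKM in vehicle mice (median 4.22), with log2 fold changes of -0.95 (adjusted p = 0.00441) and -0.76 (adjusted p = 0.0278). Of the 30 mpk mice 7 lay below every vehicle mouse.

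Prc1, which bundles microtubules of the spindle midzone, had 0.95 to 3.01 FPKM at 30 mpk (median 1.49) and 1.64 to 3.06 FPKM at 90 mpk (median 1.94), against 1.1 to 6.44 FPKM in vehicle mice (median 3.62). It fell by 1.17 on the log2 scale at 30 mpk (SE 0.24, adjusted p = 0.000325) and by 0.87 at 90 mpk (SE 0.23, adjusted p = 0.00762). Reads of Prc1 (mean 2.48 FPKM) may be shared with Rccd1 (mean 0.899 FPKM), an antisense gene that overlaps it over 21810 bases. Birc5 was called at 90 mpk (-0.87, SE 0.27, adjusted p = 0.0188) and not at 30 mpk (-0.51, adjusted p = 0.136). It had 5.27 to 10.3 FPKM at 30 mpk (median 6.15) and 3.79 to 7.64 FPKM at 90 mpk (median 5.16), against 4.71 to 21.4 FPKM in vehicle mice (median 7.03). Ube2c and Cdc20, the cofactors of the ligase that ends mitosis, were called at neither dose.

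Of the regulators, Ccna2 had 7.47 to 13.1 FPKM at 30 mpk (median 10.7) and 7.04 to 12.8 FPKM at 90 mpk (median 9.66), against 10.2 to 35.7 FPKM in vehicle mice (median 15.0). Its log2 fold change was -0.71 (adjusted p = 0.0122) and -0.88 (adjusted p = 0.00414). Mki67 had 7.51 to 13.4 FPKM at 30 mpk (median 10.1) and 8.48 to 13.9 FPKM at 90 mpk (median 10.3), against 8.39 to 32.7 FPKM in vehicle mice (median 16.9; log2 fold changes -0.74, adjusted p = 0.00398, and -0.73, adjusted p = 0.00732). Foxm1, Top2a and Ccne1, cyclin E1, also fell at both doses, whereas E2f1 (-0.09 and -0.20) and Ccne2 (-0.13 and -0.18) were not called. Without vehicle replicate 2 the count was 20 at 30 mpk and 18 at 90 mpk, and without vehicle replicate 7 it was 21 at 30 mpk and 20 at 90 mpk.

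Neutrophil and macrophage markers fell in these comparisons too, 9 of 10 and 10 of 12 at 30 mpk and 10 of 10 and 12 of 12 at 90 mpk. Summed macrophage markers were 309.8 to 557.5 FPKM at 30 mpk and 306.9 to 598.8 FPKM at 90 mpk, against 366.8 to 1045 FPKM in vehicle mice. Acinar markers were called lower in 2 of 13 at 30 mpk and 10 of 13 at 90 mpk, but their median sum was not lower. It was 55.1 FPKM in vehicle mice, 133.9 FPKM at 30 mpk and 83.4 FPKM at 90 mpk, where single vehicle mice reached up to 48530 FPKM. Fibroblast markers fell in 6 of 10 at each dose, while T cell markers were uncalled. Epithelium markers were higher in 5 of 15 at 30 mpk and uncalled at 90 mpk. The part of these cells in the members' fall was not tested.

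At 10 mpk the number of calls hung on single mice. With all mice, Cdc6 alone was called lower (log2 fold change -0.64, SE 0.19, adjusted p = 0.0399), where 2.91% of all genes were called lower and 2.83% higher. Its level was 0.84 to 2.79 FPKM at 10 mpk (median 1.25), against 1.22 to 4 FPKM in vehicle mice (median 1.71). The call of Cdc6 was lost when any of 10 of the 20 mice was left out. All 41 log2 fold changes were below 0, with a median of -0.37 in the replication and -0.37 in the mitotic part, and 24 members had an unadjusted p under 0.05. Without 10 mpk replicate 5, 30 members were called lower, 13 of 14 replication, 12 of 20 mitotic and 5 of 7 other members. The medians were then -0.52 and -0.59, and the share of all genes called in that fit is not given here. Leaving out vehicle replicate 2 or 7 instead, which were also high in the members, gave no call in any part. The 10 mpk replicate 5 had 15.4 FPKM of Ccnb1 and 28.4 FPKM of Mki67, where the others of its group reached at most 5.42 and 16.3 FPKM.

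For the members given throughout, the group still leaned low. Rrm2 had 3.53 to 29.9 FPKM at 10 mpk (median 7.19), against 7.23 to 34.3 FPKM in vehicle mice (median 12.1; log2 fold change -0.76, adjusted p = 0.0862). Without replicate 5, the highest mouse of its group for Rrm2, the log2 fold change of Rrm2 was -1.19. That mouse is singled out by these same values, so this value is a description and not a test. Ccnb1 had 2.55 to 15.4 FPKM at 10 mpk (median 4.41), against a median of 6.54 FPKM in vehicle mice, and Kif20a 1.18 to 9.80 FPKM (median 3.02), against a median of 4.22 FPKM. Mcm5 had 5.34 to 19.7 FPKM (median 7.55), Mcm2 2.63 to 7.66 FPKM (median 3.84), Cdc45 1.60 to 4.17 FPKM (median 2.04) and Mki67 7.21 to 28.4 FPKM (median 11.3) at 10 mpk. For each of these 7 genes the top value was that of replicate 5.

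No member was called between doses in the edgeR fit of all TNBS mice, but some other fits did call members. Of the 41, 4 had an unadjusted p under 0.05 between 30 and 10 mpk, 8 between 90 and 10 mpk and 1 between 90 and 30 mpk. Over all genes 0.469% were called higher and 1.55% lower at 30 against 10 mpk, 0.0335% and 0.0669% at 90 against 10 mpk, and 0.0948% and 0.273% at 90 against 30 mpk. DESeq2 called 0 members in each of these comparisons, and the rank-sum test 0, 0 and 3. Between 90 and 30 mpk, edgeR called 1 member with sham mice also in the fit. It called 3 with only the compared groups in the fit, and 1 with a block for replicate number. Library weights gave 3 calls between 90 and 30 mpk and 3 between 30 and 10 mpk. The intervals remained wide, but their spread was estimated over all TNBS mice. Vehicle and 10 mpk mice, with median coefficients of variation of 43.3% and 47.6%, thus enter it beside 17% at 30 mpk and 16% at 90 mpk. The intervals are therefore not the spread of the 30 and 90 mpk mice alone. For Rrm2 the log2 difference of 90 against 30 mpk was -0.04 with a 95% interval of -0.59 to 0.52, and for Ccnb1 it was -0.03 with an interval of -0.51 to 0.46. Median differences of 30 against 10 mpk were -0.06 in the replication part (0.02 under quantile scaling) and -0.30 in the mitotic part, and without 10 mpk replicate 5 they were 0.10 and -0.05.

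Set against sham mice, the treated groups had fewer members called than vehicle mice, in mixed directions. At 10 mpk 30 of 41 log2 fold changes lay above 0, with a mitotic median of 0.22 (-0.01 under quantile scaling), and at 30 and 90 mpk 12 and 6 lay above 0. At 10 mpk, 1 member was higher (Cenpa, log2 fold change 0.55, SE 0.20, adjusted p = 0.0349) and 1 lower (Plk1, -0.37, SE 0.12, adjusted p = 0.0251), where 21.3% of all genes were called higher and 14.7% lower. Cenpa had 1.76 to 8.32 FPKM at 10 mpk (median 3.32), against 1.89 to 3.21 FPKM in sham mice (median 2.39). At 30 mpk 4 were higher and 12 lower, where 30.3% of all genes were called higher and 28.7% lower. At 90 mpk 11 members were called, all lower, where 23.4% of all genes were called higher and 21.9% lower. The shares of members called lower, 12 and 11 of 41, are near those of all genes.

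At 30 mpk calls went both ways within the mitotic part, but all 4 higher calls were lost when all 50 mice shared 1 fit. Higher than sham were Birc5 (log2 fold change 0.38, adjusted p = 0.00895), Ube2c (0.38, adjusted p = 0.0173) and Cdk1 (0.26, adjusted p = 0.0215), together with Tyms (0.16, adjusted p = 0.0314) of the replication part. Birc5 had 5.27 to 10.3 FPKM at 30 mpk, against 3.62 to 6.89 FPKM in sham mice, and all 10 treated mice lay above the sham median. Ube2c had 7.96 to 17.8 FPKM at 30 mpk (median 10.6), against 6.18 to 10.9 FPKM in sham mice (median 8.37), and Cdk1 4.51 to 7.45 FPKM (median 5.12), against 3.73 to 5.93 FPKM (median 4.80).

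Lower than sham at 30 mpk were Cenpf (log2 fold change -0.61, SE 0.12, adjusted p = 0.000153), Prc1 (-0.58, SE 0.16, adjusted p = 0.00293) and Mki67 (-0.46, SE 0.09, adjusted p = 0.000251), as well as Plk1, Top2a, Kif11, Mcm6, Bub1b, Cenpe, Cdc6, Ccne2 and Rrm1. Cenpf had 0.62 to 1.5 FPKM at 30 mpk (median 1.17), against 1.32 to 2.08 FPKM in sham mice (median 1.75), and 8 treated mice lay below every sham mouse. At 90 mpk the largest falls were Mki67 (-0.44, SE 0.08, adjusted p = 0.000176), Kif11 (-0.40, SE 0.08, adjusted p = 0.000277) and Cenpf (-0.39, SE 0.09, adjusted p = 0.00104). Kif11, the motor that pushes spindle poles apart, had 2.70 to 3.92 FPKM at 90 mpk (median 3.11), against 3.09 to 5.02 FPKM in sham mice (median 4.19).

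Genes that had stood clearly above sham in vehicle mice were not called against sham at 30 or 90 mpk in most cases. Rrm2 was at -0.11 (adjusted p = 0.371) and -0.14 (adjusted p = 0.377), Ccnb1 at -0.09 (adjusted p = 0.586) and -0.11 (adjusted p = 0.379), and Kif20a at -0.26 (adjusted p = 0.0557) and -0.07 (adjusted p = 0.612) on the log2 scale. Their 30 and 90 mpk levels overlapped those of sham mice.

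Gene length went with the direction of these calls. The 4 members higher than sham at 30 mpk had 2600 to 6089 bases of exon (median 4168), and the 12 lower ones 2199 to 15433 bases (median 7843). Over the 40 members without Plk1, Spearman's rho between exon length and log2 fold change was -0.58 at 30 mpk against sham and -0.50 at 90 mpk against sham. Over all 17928 genes it was -0.37 and -0.23, and over 87 other cell cycle genes -0.67 and -0.51. For 30 mpk against vehicle it was -0.41 in the members and -0.26 in all genes, for 90 mpk against vehicle -0.21 and -0.03, and for vehicle against sham -0.19 and -0.16. For 10 mpk against sham it was -0.47 and -0.24. For 90 against 30 mpk the sign was opposite, with 0.52 in the members, 0.63 in the other cell cycle genes and 0.39 in all genes. The part of length in the members' fold changes was not tested.

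**Figure D4:**
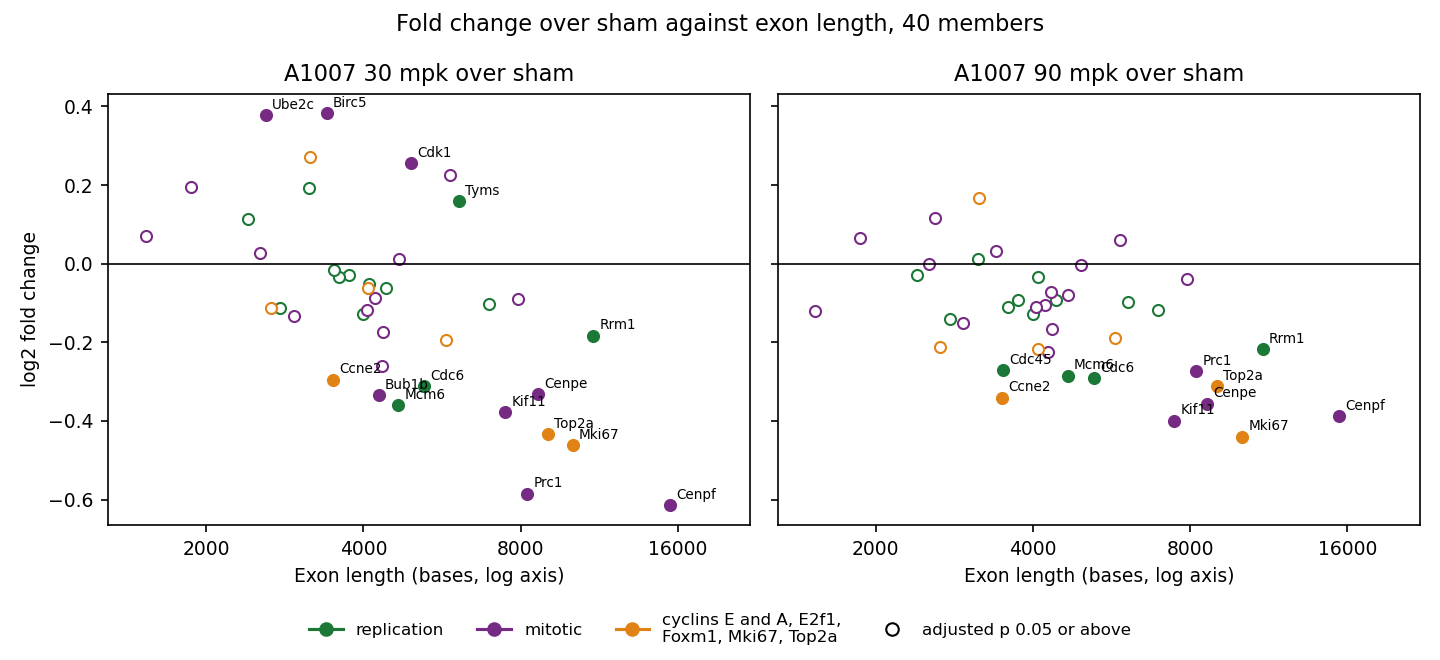
Log2 fold change over sham (vertical axis) against exon length in bases (horizontal log axis) for 40 members without Plk1, at 30 mpk (left) and 90 mpk (right); filled points passed adjusted p under 0.05 and carry their names. At 30 mpk the called members above 0 have at most 6089 bases, and Cenpf, the longest with 15433 bases, lies lowest.

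These calls against sham also depended on how the spread was estimated. When all 50 mice shared 1 fit, 6 members were called at 30 mpk, all lower (Ccne2, Cenpf, Mki67, Plk1, Prc1 and Top2a). In that fit the adjusted p at 30 mpk was 0.177 for Birc5, 0.145 for Ube2c, 0.245 for Cdk1 and 0.297 for Tyms. At 90 mpk Ccne2 alone was called (-0.34, adjusted p = 0.0178), and Mki67 (adjusted p = 0.0631), Kif11 (adjusted p = 0.114) and Cenpf (adjusted p = 0.100) were not.

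The ratio of the mitotic to the replication part gives the comparison of the parts within a mouse. The log2 ratio of the geometric means (mitotic members without Plk1 over replication members) was -0.63 to -0.11 in vehicle mice (median -0.31), -0.84 to 0.04 at 10 mpk (median -0.36), -0.92 to -0.18 at 30 mpk (median -0.55), -1.17 to -0.12 at 90 mpk (median -0.50) and -0.76 to -0.24 in sham mice (median -0.52). Vehicle mice sat highest and the ranges of all groups overlapped. With the genes the selection names, Mcm2-7, Rrm1, Rrm2 and Cdc45 against Ccnb1, Ccnb2, Plk1, Kif11, Kif20a and Kif23, the median log2 fold changes were 0.36 and 0.57 in vehicle against sham, -0.45 and -0.70 at 30 mpk against vehicle, and -0.45 and -0.72 at 90 mpk against vehicle.

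Plk1, the polo kinase of mitosis, did not follow its group. It was the most abundant mitotic member, with 16.3 to 40.1 FPKM in vehicle mice (median 35.7), 15.8 to 42.4 FPKM at 10 mpk (median 27.8), 18.4 to 34.1 FPKM at 30 mpk (median 26.6), 29.6 to 42.0 FPKM at 90 mpk (median 36.9) and 31.6 to 41.3 FPKM in sham mice (median 37.2). It was not raised in vehicle mice (log2 fold change -0.17, adjusted p = 0.213), and against vehicle it was not called at 30 mpk (-0.28, adjusted p = 0.0933) or 90 mpk (0.14, adjusted p = 0.510). Against sham it fell at 30 mpk (-0.46, SE 0.09, adjusted p = 0.000109), where 9 of 10 mice lay below every sham mouse, and was not called at 90 mpk (-0.04, adjusted p = 0.617).

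The locus of Plk1 (GRCm39 chromosome 7, 121758662 to 121769096, + strand) ends 19 bases short of Ern2 (121769116 to 121785430, - strand), an endoplasmic reticulum stress sensor of goblet and other secretory epithelial cells that is transcribed towards it. It also holds the antisense gene Gm44985 (121766252 to 121767267, - strand), whose mean was 71.3 FPKM. No source used here gives the strand setting of the counting, so reads of Plk1 and of opposite-strand transcripts may not be separated. Ern2 had 4.58 to 22.1 FPKM in vehicle mice (median 15.0), 6.33 to 21.4 FPKM at 10 mpk (median 11.99), 7.80 to 16.8 FPKM at 30 mpk (median 11.3), 13.5 to 21.4 FPKM at 90 mpk (median 17.1) and 17.4 to 24.1 FPKM in sham mice (median 20.1). Its order over the groups matched that of Plk1 in being lowest at 30 mpk and highest in sham mice.

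With group means removed, Plk1 and Ern2 correlated over the 50 mice with Pearson's r = 0.82 (permutation p = 1e-05, adjusted 2e-05 over 4 relations) and Spearman's rho = 0.69 (permutation p = 1e-05, adjusted 2e-05); 1e-05 is the smallest p the permutations can give. Without the 2 mice farthest from the median in Plk1, r was 0.72. Plk1 and Gm44985 gave r = 0.01 (permutation p = 0.942, adjusted 0.942) and rho = 0.05 (permutation p = 0.713, adjusted 0.713), with r = 0.17 without the 2 farthest mice. Plk1 and Mki67 gave r = 0.64 (permutation p = 1e-05, adjusted 2e-05) and rho = 0.64 (permutation p = 1e-05, adjusted 2e-05), with r = 0.62. Plk1 and Ccnb1 gave r = 0.43 (permutation p = 0.00306, adjusted 0.00408) and rho = 0.42 (permutation p = 0.00222, adjusted 0.00296), with r = 0.50. The permutations exchanged mice across groups of unequal spread, and Ern2 and Gm44985 were chosen after their values were seen. These p-values are therefore a description.

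The 3 mice with the most Ccnb1 stood off the relation with Ern2. Vehicle replicates 2 and 7 and 10 mpk replicate 5 had 40.1, 38.5 and 36.9 FPKM of Plk1 at 10.5, 14.5 and 10.4 FPKM of Ern2. The part of Ern2 reads in the Plk1 counts was not tested.

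**Figure D5:**
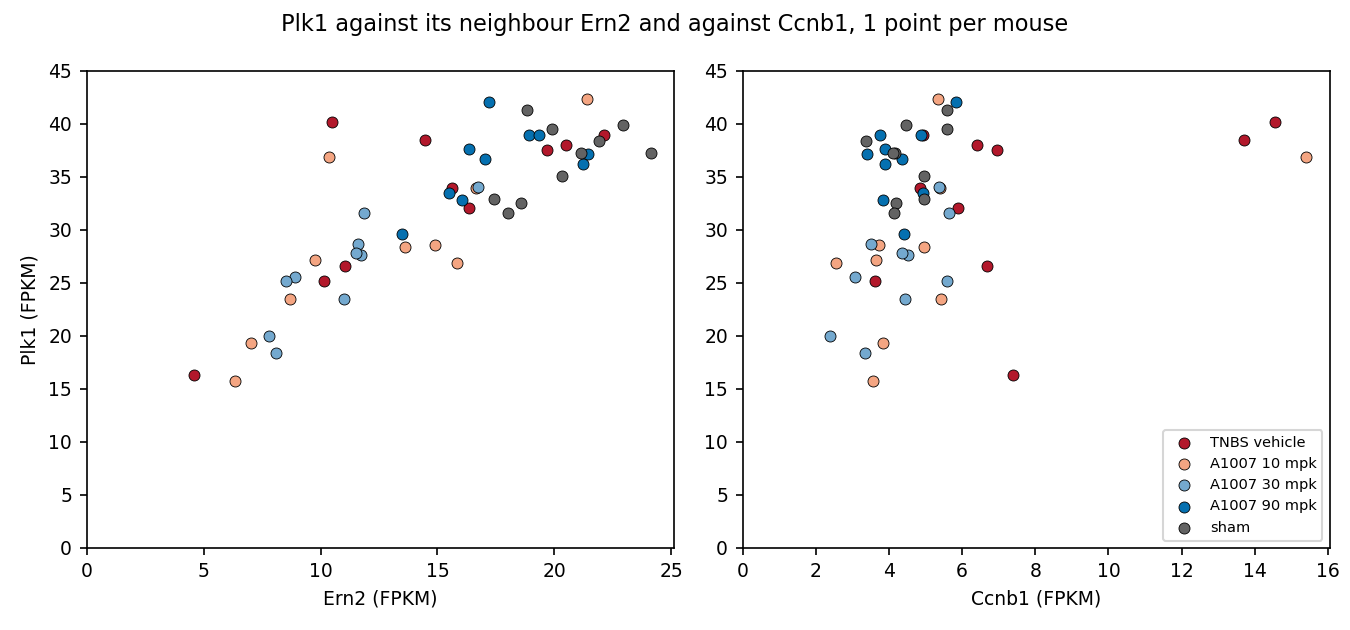
Plk1 (FPKM, vertical axis) against Ern2 (left) and Ccnb1 (right) in FPKM, 1 point per mouse in 5 groups. Plk1 climbs with Ern2 across all groups, and the 3 mice with over 13 FPKM of Ccnb1 lie at 36.9 to 40.1 FPKM of Plk1.

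Of the 41 members 19 overlap another annotated gene, and in 6 of them (Ccne2, Cdc20, Cdc45, Gins2, Mcm7 and Plk1) the overlapping gene had the higher mean FPKM. Values of these 6 members are uncertain to the extent that the counting shares reads.

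Other genes of the same pathways were read from lists beyond the members. Of 45 other mitotic genes 33 were higher in vehicle than in sham mice, with a median log2 fold change of 0.54. Cks1b, a subunit of cyclin-dependent kinases, rose by 1.1 (SE 0.22, adjusted p = 0.000604) and averaged 19.04 FPKM in vehicle and 9.01 FPKM in sham mice. Anln, an actin-binding protein of the cleavage furrow (0.77), Espl1, the protease separase (0.64), and Incenp of the passenger complex (0.67) rose as well. Of 42 other replication genes 5 were higher, a smaller share than the 18.2% of all genes, with a median of 0.26. Among the 5 were Prim2, the large primase subunit (0.69, adjusted p = 0.00339), and Asf1b, a histone chaperone (0.73, adjusted p = 0.0132).

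Against vehicle, 32 of 45 other mitotic genes were lower at 30 mpk and 36 at 90 mpk. Of 42 other replication genes 16 were lower and 1 higher at 30 mpk, and 17 were lower at 90 mpk. Over all genes 17.9% were called lower and 13.5% higher at 30 mpk, and 11.1% lower at 90 mpk. Ncapg, a condensin subunit, fell by 0.92 at 30 mpk (adjusted p = 0.000707) and by 0.93 at 90 mpk (adjusted p = 0.000955) on the log2 scale. Clspn, the S-phase checkpoint mediator claspin, fell by 1.1 (adjusted p = 0.00049) and 0.95 (adjusted p = 0.00301), and Pole, the leading-strand polymerase, by 0.90 and 0.81. Dnmt1, which copies DNA methylation onto the new strand, fell by 0.74 at 30 mpk (adjusted p = 6.78e-05). At 10 mpk 3 of the 42 replication genes (Pole, Prim2 and Dnmt1) and 1 of the 45 mitotic genes (Ncapg) were lower, beside 2.91% of all genes.

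Genes upstream of division were mixed. Of 23 G1 drivers and E2F family genes 6 were higher and 5 lower in vehicle than in sham mice, beside 18.2% and 13.5% of all genes. E2f2, an activating E2F, averaged 5.33 FPKM in vehicle and 1.55 FPKM in sham mice, a log2 fold change of 1.78 with adjusted p = 6.55e-08 and SE 0.15. It fell at every dose against vehicle, by 0.98 at 10 mpk (adjusted p = 0.00155), 1.09 at 30 mpk (adjusted p = 2.24e-05) and 1.39 at 90 mpk (adjusted p = 3.45e-06) on the log2 scale. Cdk6, a G1 kinase (-0.58), and Ccnd2, cyclin D2 (-0.41), were lower in vehicle than in sham mice. Mybl2, the B-Myb factor of the MuvB complex, fell at 30 mpk (-0.93, adjusted p = 0.00202) and 90 mpk (-0.77, adjusted p = 0.0128) against vehicle. Lin52 of the same list was higher than vehicle at each dose. Its log2 fold changes were 0.346, 0.465 and 0.488 for the rising doses (adjusted p = 0.0145, 0.000104 and 0.000105). Of the 23 genes, 1 was higher and 2 lower than vehicle at 10 mpk. These counts were 2 and 8 at 30 mpk, and 2 and 5 at 90 mpk. Over all genes 2.83% were called higher and 2.91% lower at 10 mpk. At 30 mpk these shares were 13.5% and 17.9%, and at 90 mpk 7.12% and 11.1%.

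Of 18 tested cell cycle inhibitors 2 were higher and 4 lower in vehicle than in sham mice, beside 18.2% and 13.5% of all genes. Wee1, the kinase that holds Cdk1 inactive, averaged 6.99 FPKM in vehicle and 13.5 FPKM in sham mice, a log2 fold change of -0.95 with adjusted p = 1e-08 and SE 0.07. It was higher than vehicle at 10 mpk (0.32, adjusted p = 0.0308), 30 mpk (0.48, adjusted p = 0.000155) and 90 mpk (0.55, adjusted p = 6.12e-05), and stayed below sham at each dose (-0.63, -0.48 and -0.41). The antiproliferative gene Tob1 was also lower in vehicle than in sham mice (-0.61, adjusted p = 4.59e-05), and higher than vehicle at 10 mpk (0.41) and 30 mpk (0.50). Btg2, another gene of that family, averaged 108.9 FPKM at 30 mpk, 48.1 FPKM at 90 mpk and 43.9 FPKM in vehicle mice. Its log2 fold change was 1.34 at 30 mpk against vehicle (SE 0.19, adjusted p = 5.78e-06) and -1.24 at 90 against 30 mpk (SE 0.19, adjusted p = 0.000281). Cdkn2c of the same list was lower than vehicle at 90 mpk (-0.473, adjusted p = 0.0079). Of the 18 inhibitors, 4 were higher and 0 lower than vehicle at 10 mpk. At 30 mpk 5 were higher and 2 lower, and at 90 mpk 1 and 1. Over all genes 2.83% were called higher and 2.91% lower at 10 mpk. At 30 mpk these shares were 13.5% and 17.9%, and at 90 mpk 7.12% and 11.1%.

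Markers of the crypt stem and progenitor zone went both ways. Of 14 markers 2 were higher and 6 lower in vehicle than in sham mice, beside 18.2% and 13.5% of all genes. Their summed levels were 133.4 to 193.9 FPKM in vehicle mice and 161.8 to 193.7 FPKM in sham mice. Ascl2, a transcription factor of crypt stem cells, averaged 2.39 FPKM in vehicle and 4.69 FPKM in sham mice (log2 fold change -0.97, adjusted p = 0.00041), and the Wnt target Axin2 4.41 and 7.75 FPKM (-0.82, adjusted p = 1.28e-05). Smoc2, a secreted matrix protein, was higher in vehicle than in sham mice, at 6.90 and 4.11 FPKM (0.78, adjusted p = 0.000141). Against vehicle 4 of the 14 were higher and 3 lower at 30 mpk, and 6 higher and 1 lower at 90 mpk. Over all genes 13.5% were called higher and 17.9% lower at 30 mpk, and 7.12% and 11.1% at 90 mpk. Ascl2 was higher at 30 mpk (1.19, adjusted p = 0.000205) and 90 mpk (0.79, adjusted p = 0.013). Cd44, an adhesion receptor that immune and stromal cells also carry, was lower at 10 mpk (-0.53, adjusted p = 0.0406), 30 mpk (-0.93, adjusted p = 5.92e-05) and 90 mpk (-0.88, adjusted p = 0.000164). Ephb2 (-0.46) and Prom1 (-0.47) were lower at 30 mpk. Of 12 germinal centre B cell markers 3 were higher and 1 lower in vehicle than in sham mice, beside 18.2% and 13.5% of all genes.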

How the data were processed

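The authors deposited 1 table with raw read counts and FPKM per gene and library, exon lengths, GRCm39 coordinates and symbols. Per the submitters' processing notes, the GRCm39 build and the tools HISAT2 2.2.1, HTSeq 0.6.1, cutadapt 1.9.1 and DESeq2 were used; no source used here gives the strand setting or the handling of multi-mapping reads. FPKM recomputed from the counts lay within 1% of the deposited FPKM in 99.997% of values with at least 500 counts, and no 2 libraries were identical. Libraries are taken as 1 mouse each, numbered 1 to 10 per group in the labels, and p-values measure the spread between these libraries.

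The counts were tested with edgeR 4.0.16 (R 4.3.3; TMM scaling, filterByExpr with a count minimum of 10, estimateDisp, robust glmQLFit, glmQLFTest) over 17928 genes, with Benjamini-Hochberg adjustment over all of them and a threshold of 0.05. Comparisons with sham used the 20 mice of the pair of groups, and comparisons among vehicle and doses the 40 TNBS mice. Every adjusted p not otherwise named is from this test, which was also tested on simulated counts. Intervals are 95% intervals. Levels are deposited FPKM, given as lowest, highest and median, or as the mean, of 10 mice; geometric means are over members within a mouse. Alternatives were DESeq2 1.42.0, limma 3.58.1 on log2(FPKM + 0.5), quantile scaling, library weights, a rank-sum test, no filter, other sets of mice and a replicate block.

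Members, their division into parts and the further gene lists were chosen with earlier results of these data known. All members could be named; those shown by mouse range throughout are Mki67, Mcm2, Mcm5, Rrm2, Cdc45, Ccnb1, Plk1 and Kif20a, plus the 3 largest called rises and falls of each comparison. From other lists up to 4 called genes of smallest p were eligible. Ern2, Gm44985, Rccd1, Hoxd13, Xist and S100a8 were chosen after their values were seen, as were the 4 promoters' genes.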

Additional observations from a re-analysis of the deposited data

Results flagged for a closer look

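Of 205 sets of 10 mice (41 members in 5 groups) 47, or 22.9%, held a mouse whose gap to the nearest other mouse was larger than Dixon's 95% critical value for its share of the group's range. For normally distributed values chance would mark about 1 set in 20. The sets here hold untransformed FPKM and share mice, so that rate need not hold for them. Of the 47, 37 were 10 mpk replicate 5, always as the highest mouse, so these marks share 1 library. Among replication members it had 7.66 FPKM for Mcm2, 18.13 FPKM for Mcm3, 22.69 FPKM for Mcm4, 19.72 FPKM for Mcm5, 22.84 FPKM for Mcm6, 22.67 FPKM for Mcm7 and 70.67 FPKM for Pcna. It also had 13.19 FPKM for Rrm1, 29.93 FPKM for Rrm2, 9.09 FPKM for Tyms, 4.17 FPKM for Cdc45, 2.79 FPKM for Cdc6, 9.58 FPKM for Cdt1 and 4.47 FPKM for Gins2. Among mitotic members it had 15.4 FPKM for Ccnb1, 40.83 FPKM for Ccnb2, 13.65 FPKM for Cdk1, 7.75 FPKM for Bub1, 11.23 FPKM for Bub1b, 12.34 FPKM for Aurka, 14.5 FPKM for Aurkb, 20.36 FPKM for Birc5 and 8.32 FPKM for Cenpa. It also had 5.65 FPKM for Cenpe, 9.12 FPKM for Kif11, 9.8 FPKM for Kif20a, 8.65 FPKM for Kif23, 16.04 FPKM for Tpx2, 27.74 FPKM for Ube2c, 36.57 FPKM for Cdc20, 12.51 FPKM for Nusap1 and 5.87 FPKM for Prc1. Among the other members it had 5.41 FPKM for Ccne1, 5.88 FPKM for Foxm1, 34.68 FPKM for Ccna2, 28.4 FPKM for Mki67 and 26.82 FPKM for Top2a. Its replication mean of 13.03 FPKM and S100a8 level of 230.2 FPKM were both the highest of its group. The part of this library in the results at 10 mpk is given by the counts without it.

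The remaining 10 marks fell on single genes. In vehicle mice Cdt1 was highest in replicate 2 at 9.65 FPKM (next 6.86 FPKM). At 30 mpk Mcm3 was highest in replicate 5 at 11.05 FPKM (next 9.11 FPKM), Birc5 was highest in replicate 8 at 10.34 FPKM (next 7.82 FPKM), Prc1 was highest in replicate 1 at 3.01 FPKM (next 1.99 FPKM) and E2f1 was highest in replicate 5 at 2.47 FPKM (next 2.04 FPKM). At 90 mpk Mcm6 was highest in replicate 7 at 14.37 FPKM (next 11.97 FPKM). In sham mice Mcm7 was highest in replicate 5 at 14.57 FPKM (next 12.37 FPKM), Rrm2 was highest in replicate 5 at 10.6 FPKM (next 6.96 FPKM), Nusap1 was lowest in replicate 6 at 4.49 FPKM (next 5.53 FPKM) and Prc1 was lowest in replicate 6 at 1.59 FPKM (next 2.37 FPKM).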

How the results depend on the processing

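Counts are of 41 members called. The share of all genes called is given for the main fit only. Whether a changed count is particular to the members therefore cannot be read from these counts or from those with mice left out. Vehicle against sham gave 23, with 15 by limma on FPKM, 15 without the filter on low counts, 12 by quantile scaling and 15 by a rank-sum test. At 10 mpk against vehicle the 1 call became 2 by DESeq2 and 2 with all 50 mice in 1 fit. It became 0 by limma, without the filter, with only the 2 groups compared, by quantile scaling and by the rank-sum test. At 90 mpk against vehicle the rank-sum test gave 18 in place of 30. Against sham, all 50 mice in 1 fit gave 6 in place of 16 at 30 mpk and 1 in place of 11 at 90 mpk. At 10 mpk against sham the 2 calls became 5 with library weights, 1 by limma and 1 without the filter. Between 30 and 10 mpk library weights gave 3 in place of 0. Between 90 and 30 mpk all 50 mice gave 1, and library weights, only the 2 groups and the rank-sum test gave 3 each. The cause of these differences was not tested.

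Leaving out 1 mouse at a time gave 15 to 31 calls for vehicle against sham, 0 to 30 at 10 mpk, 20 to 31 at 30 mpk and 18 to 34 at 90 mpk against vehicle, and 0 between doses; comparisons of doses with sham were not run this way. Alternatives chosen after seeing the data left out the 2 mice low in Hoxd13, with 0 calls at 10 mpk against vehicle and 4 against sham, or the 2 mice low in Xist, with 0 and 1, and 1 between 30 and 10 mpk. Under quantile scaling the replication median was 0.24 in place of 0.38 for vehicle against sham, and medians near 0 changed sign: at 10 mpk against sham the mitotic one was -0.01 in place of 0.22 and the replication one -0.06 in place of 0.05, and between 30 and 10 mpk the replication one was 0.02 in place of -0.06. With only the genes the selection names, the mitotic median of 90 against 30 mpk was 0.01 in place of -0.03. Without 10 mpk replicate 5 the replication medians were 0.10 in place of -0.06 for 30 against 10 mpk and 0.06 in place of -0.12 for 90 against 10 mpk, and that of the 7 other members was 0.01 in place of -0.28 for 30 against 10 mpk. No called value of a single member changed sign in the alternatives run.

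The replicate numbers did not pair the mice: deviations of same-numbered mice correlated from -0.28 to 0.50 (median -0.01 over 100 pairs), against a median of -0.01 over 900 pairs of other numbers. With the replicate block the counts were 17 for vehicle against sham, 1, 25 and 30 for the rising doses against vehicle, 1 for 90 against 30 mpk, and 3, 20 and 9 against sham. Depth limits Ccne1, E2f1 and Gins2 most, with as few as 59, 59 and 61 counts in a library.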
